A study of Homo sapiens with 6 samples.

Results

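RNA of Hep3B, a human hepatocellular carcinoma cell line, was sequenced to ask which genes differed when DAGLA was knocked down. DAGLA is the diacylglycerol lipase that makes the endocannabinoid 2-arachidonoylglycerol. The genes described here are the ATP-binding cassette (ABC) proteins and 3 solute carrier families that move organic ions: SLCO, SLC10 and SLC22. They were chosen by symbol among protein-coding genes, so that pseudogenes were left out, and the rule left out SLC22A18 by name. Of 29908 genes in the table, 73 met the rule: 43 ABC genes, 10 SLCO, 5 SLC10 and 15 SLC22. The 12 other protein-coding genes of GENCODE 29 that fit the rule had no row in the table and were not analysed here.

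There were 2 groups of 3 libraries. Hep3B-Con cells carried a control lentivirus, labelled shControl, and Hep3B-KD cells carried a lentivirus with a short hairpin RNA (shRNA) against DAGLA. Both groups were infected at the same multiplicity and selected with puromycin, and both were grown with foetal bovine serum and antibiotics, in DMEM by the labels and in MEM-alpha by the study's methods. A single hairpin was used, no rescue was sequenced, and the study's methods speak of selecting clones with stable expression. The study's methods state in general that independent experiments were repeated, but the labels do not tie the 3 libraries of a group to separate cultures. The p-values may therefore measure only technical spread between these libraries.

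The library totals, rebuilt from the deposited values, ran from 16644962 to 17572714 reads in Hep3B-Con and from 15861039 to 16593115 in Hep3B-KD. DAGLA stood at 9.28 ± 0.229 FPKM (SD, n = 3) in Hep3B-Con and 4.62 ± 0.164 in Hep3B-KD (FPKM, fragments per kilobase of exon scaled to library size). The log2 fold change was −0.99, with an adjusted p of 5.25e-06 in limma. All 6 hepatocyte markers (ALB, AFP, APOB, TTR, SERPINA1 and TF) were higher in Hep3B-KD, and their summed level went from 2432 to 2482 FPKM in Hep3B-Con to 3918 to 3938 in Hep3B-KD. KRT19, SOX9 and EPCAM, markers of bile duct cells, were also expressed. They were higher in Hep3B-KD and KRT7 was lower, so that the 4 summed to 272.8 to 320.7 FPKM in Hep3B-Con and 351.4 to 396 in Hep3B-KD. The 4 stellate cell and fibroblast markers summed to 3.45 to 3.74 FPKM and then 2.44 to 2.48. The 3 endothelial markers summed to no more than 0.385 FPKM in any library, with VWF and CDH5 near 0. Of the 4 leukocyte and macrophage markers, CD68 and MARCO had no row, PTPRC was near 0, and the summed level stayed at or under 1.32 FPKM. The part of these cell type markers in the results below was not tested. In such bulk libraries, fewer cells that express a gene and less of its RNA per cell cannot be told apart.

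ABC proteins bind and hydrolyse ATP, and most use it to export or flip lipids, bile salts, conjugates and drugs across a membrane. The organic anion transporting polypeptides (SLCO), the SLC10 family with its bile acid carriers, and the SLC22 cation, anion and carnitine carriers mostly take up small organic ions without ATP. In liver, uptake carriers lie on the blood side of the hepatocyte, and a set of ABC pumps on the canalicular side makes bile.

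The hairpin sequence shows what the cells carried, and its seed was searched for among the transporter transcripts. Its target was found in 1 gene only among the GENCODE 29 transcripts, DAGLA, in 2 transcripts. The target and the guide strand (its reverse complement) are given here 5′ to 3′, as DNA letters, with the seed of the guide, bases 2 to 8, in capitals.
Hairpin target: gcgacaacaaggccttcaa
Guide strand: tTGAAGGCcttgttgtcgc
The 7-base match to this seed was searched for in the longest 3′ UTR among each gene's coding transcripts. It occurred in 4 of 36 tested transporter genes that have one (11.1%), and in 14.6% of 11189 tested genes. The 4 were ABCC3, ABCC5, SLCO2B1 and SLCO4C1. SLCO2B1 held it at 2 places, at bases 443 to 449 and 634 to 640 of its 3′ UTR, shown with 10 bases on either side and the match in capitals.
SLCO2B1, upstream match: gaacttgccaGCCTTCAggctcgttca
SLCO2B1, downstream match: acttggcaggGCCTTCAagaggcctgt
Of these 4 genes, ABCC3 was lower in Hep3B-KD, SLCO2B1 and ABCC5 were higher, and SLCO4C1 did not pass the test. A match is a description of letters and not a site of action.

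The transporter genes spanned a wide range of levels. In Hep3B-Con, 9 of the 73 had a mean of 10 FPKM or more, 24 lay between 1 and 10, and 40 lay under 1. ABCF1, which takes part in translation initiation and transports nothing, was far above the rest at 112 ± 1.0 FPKM (SD, n = 3) and made up 33.4% of the summed level of all 73 genes. The next in order were ABCB1 at 17.7 ± 0.237, ABCC1 at 15.7 ± 0.627, ABCF3 at 14.6 ± 0.75, ABCE1 at 14.1 ± 0.557, ABCB10 at 13.1 ± 0.941, ABCC2 at 10.5 ± 0.342, SLC22A9 at 10.3 ± 0.572 and ABCD3 at 10.2 ± 0.0492. The gaps between ABCC1 and ABCF3, ABCF3 and ABCE1, and ABCE1 and ABCB10 were smaller than the sum of the 2 SDs, as were those among ABCC2, SLC22A9 and ABCD3. Summed over all 73 genes, the level was 334.7 to 336.3 FPKM in the Hep3B-Con libraries and 346.3 to 351.7 in the Hep3B-KD libraries. Without ABCF1 it was 221.6 to 225.2 and 253.9 to 258.7 FPKM, and ABCD3 alone went from a mean of 10.2 to 27.9 FPKM.

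A gene was tested if its 6 libraries averaged 0.5 FPKM or more, which held for 37 of the 73. Of those 37, 3 had a mean under 0.5 FPKM in 1 group and passed through the other (SLCO2B1, SLC10A5 and ABCA3). The test was limma on log2(FPKM + 0.1), adjusted over all 14221 genes tested, and fold changes refer to that scale, on which low genes appear to change less than they did. With a fold of at least 2 and an adjusted p under 0.05, 8 of 37 transporter genes were called (21.6%), against 8.83% of all genes tested. Of the 8, 6 were higher in Hep3B-KD and 2 were lower. Over all genes, 5.89% were called higher and 2.94% lower. At any fold, 29 of 37 passed (78.4%; 16 higher and 13 lower), against 59.9% of all genes, made up of 36.1% higher and 23.8% lower. The groups did not overlap in 31 of 37 (83.8%), against 66.9% of all genes. The share passing at any fold was thus high in the whole table, and the median log2 fold change was 0.11 both for the transporter genes and for all genes.

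That common shift depended on scaling. Centring on the median log ratio moved the median of all genes from 0.11 to 0.0059 and quantile normalisation to 0.015, and the median of the transporter genes to 0.0076 and −0.066. The share of all genes called at a fold of 2 that were higher went from 66.7% to 53.7% and 44.8%. Among the transporter genes the called split went from 6 higher and 2 lower to 5 and 2 with centring and 5 and 3 with quantile normalisation. Rises near 0.11 thus lie at the median of all genes, and values with centring are given below where they change a call or a sign.

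The SLC10 family held both the widest rise and a marked fall. SLC10A1, the sodium-dependent bile acid uptake carrier of hepatocytes, had 1 to 4 reads in every library (7 in all in Hep3B-Con and 12 in Hep3B-KD). SLC10A5 (ENSG00000253598, chr8:81693607-81696174, minus strand), an orphan member with no settled substrate, had 0.443, 0.291 and 0.421 FPKM in the Hep3B-Con libraries and 2.60, 1.79 and 1.99 in the Hep3B-KD libraries. Every Hep3B-KD library lay above every Hep3B-Con library. The log2 fold change was 2.20 ± 0.208 (SE), with an adjusted p of 1.33e-04 in limma. SLC10A5 has 1 pseudogene named after it, so reads could be shared. SLC10A3 (ENSG00000126903, chrX:154487306-154490690, minus strand), another orphan member, went the opposite way. It had 10.5, 8.65 and 10.2 FPKM in Hep3B-Con and 2.72, 3.57 and 2.95 in Hep3B-KD, and the groups did not overlap. Its log2 fold change was −1.64 ± 0.117 (adjusted p = 3.67e-05, limma). SLC10A4 had a log2 fold change of −0.38 and an adjusted p of 0.045 in limma, and its groups overlapped. The call was lost without Hep3B-Con library 1 (0.123) or 2 (0.121) and without Hep3B-KD library 1 (0.102) or 2 (0.114). It was also lost with voom on whole reads (0.0657), moderation without a trend (0.0599), rescaling to the same FPKM sum (0.0577) and no filter on low values (0.0946). SLC10A4 passed in 7 of 16 alternatives. SLC10A7 did not pass, at 0.18, and turned to −0.066 with quantile normalisation.

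Among the organic anion transporting polypeptides, 2 of 10 were tested. SLCO2B1 (ENSG00000137491, chr11:75100563-75206549, plus strand), an uptake carrier of steroid sulphates and several drugs, had 0.434, 0.467 and 0.476 FPKM in Hep3B-Con and 1.96, 2.11 and 1.88 in Hep3B-KD. The libraries of each group were close to each other and far from the other group. SLCO2B1 rose by 1.90 ± 0.128 (adjusted p = 2.82e-05, limma). SLCO4C1, an uptake carrier described mainly in kidney, had 0.48, 0.593 and 0.597 FPKM in Hep3B-Con and 0.768, 0.817 and 0.723 in Hep3B-KD. The groups did not overlap, but the log2 fold change of 0.41 had an adjusted p of 0.104 in limma. It passed in 2 of 15 alternatives, moderation without a trend (0.0124) and voom on whole reads (0.0338). SLCO1B1 and SLCO1B3, the main drug and bilirubin uptake carriers of the normal liver, were near the floor: SLCO1B1 had 4, 8 and 5 reads in Hep3B-Con and 3, 1 and 3 in Hep3B-KD, and SLCO1B3 no more than 3 reads in any library.

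The SLC22 carriers moved in both directions. SLC22A3 (ENSG00000146477, chr6:160348268-160452581, plus strand), an organic cation carrier of monoamines and metformin, had 2.01, 2.20 and 2.33 FPKM in Hep3B-Con and 5.84, 4.93 and 5.29 in Hep3B-KD, with no overlap. Its log2 fold change was 1.26 ± 0.0863 (adjusted p = 3.10e-05, limma). Its neighbour on chromosome 6, SLC22A2, had 1 read in all 6 libraries together. SLC22A23 (ENSG00000137266, chr6:3268962-3457022, minus strand), an orphan carrier, had 4.91, 5.28 and 4.46 FPKM in Hep3B-Con and 10.8, 10.8 and 11.3 in Hep3B-KD. All 3 Hep3B-KD libraries were above 10 and all 3 Hep3B-Con libraries were under 6. The log2 fold change was 1.15 ± 0.0659 (adjusted p = 1.42e-05, limma). Of its exon bases, 15.6% overlap PSMG4 on the opposite strand, and whether the counting used strand is not given in the sources used here. SLC22A31 was lower, at 1.21 ± 0.27 and 0.671 ± 0.128 FPKM (SD, n = 3), with a log2 fold change of −0.76 and an adjusted p of 0.0223 in limma. That call was lost without Hep3B-Con library 2 (0.0747) or 3 (0.0637) and without Hep3B-KD library 2 (0.0589). SLC22A31 passed in 10 of 15 alternatives.

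SLC22A15 (ENSG00000163393, chr1:115976498-116070054, plus strand), a carrier of zwitterions such as carnitine and ergothioneine, showed the widest fall among the tested transporter genes. It had 5.62, 5.77 and 6.01 FPKM in Hep3B-Con and 1.16, 1.39 and 1.26 in Hep3B-KD. The groups lay far apart and the libraries within each were close. On the log2 scale the difference was −2.11 ± 0.0803 (adjusted p = 2.92e-06, limma). SLC22A5, the main carnitine uptake carrier, stood at 1.07 ± 0.0203 FPKM and 1.0 ± 0.0645 and did not pass, at a log2 fold change of −0.094 (adjusted p = 0.532), although it passed at −0.37 with quantile normalisation (0.0395). SLC22A9, a liver organic anion exchanger of steroid sulphates, had 10.6, 10.7 and 9.64 FPKM in Hep3B-Con and 14.6, 14.9 and 13.4 in Hep3B-KD. It was the most abundant of the 15 SLC22 genes in Hep3B-Con, and it rose by 0.47 (adjusted p = 4.35e-04, limma). Its chromosome 11 neighbours SLC22A10 and SLC22A25 had no more than 22 reads in any library.

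The ABCD genes code for transporter subunits that import fatty acids into peroxisomes, apart from ABCD4, which serves cobalamin release from lysosomes. ABCD3 (ENSG00000117528, chr1:94418455-94518666, plus strand), an importer of branched-chain fatty acids and of bile acid intermediates, had 10.1, 10.2 and 10.2 FPKM in Hep3B-Con and 27.9, 27.5 and 28.4 in Hep3B-KD. The spread within each group was small beside the gap. ABCD3 rose by 1.45 ± 0.0264 (adjusted p = 1.82e-07, limma), the smallest adjusted p of the 37. Of the other members, ABCD4 was higher by 0.59 (2.39 ± 0.172 and 3.65 ± 0.224 FPKM; adjusted p = 6.83e-04, limma), and ABCD2 had 2 to 6 reads in every library.

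Of 14 genes of peroxisomal fatty acid oxidation, all tested, 6 were higher and 4 lower at any fold, beside 36.1% and 23.8% of all genes tested, and the median log2 fold change was 0.026, beside 0.11 for all genes. Past a fold of 2, CROT, which makes carnitine esters of medium-chain fatty acids for export, went from 2.87 ± 0.168 to 8.70 ± 0.192 FPKM, and the bifunctional enzyme EHHADH from 2.01 ± 0.115 to 5.31 ± 0.337. PECR, a peroxisomal enoyl reductase, went from 12.6 ± 0.488 to 4.17 ± 0.202.

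The promoters of ABCD3 and SLC22A15, the genes with the smallest adjusted p in each direction, are shown because these 2 genes went opposite ways. They run from 250 bases before to 50 after the RefSeq start (RefSeq, GRCh38.p14), on the gene's strand, with GC boxes (GGGCGG on either strand) in capitals. ABCD3 is at chr1:94418139-94418438 and SLC22A15 at chr1:115976263-115976562.
ABCD3: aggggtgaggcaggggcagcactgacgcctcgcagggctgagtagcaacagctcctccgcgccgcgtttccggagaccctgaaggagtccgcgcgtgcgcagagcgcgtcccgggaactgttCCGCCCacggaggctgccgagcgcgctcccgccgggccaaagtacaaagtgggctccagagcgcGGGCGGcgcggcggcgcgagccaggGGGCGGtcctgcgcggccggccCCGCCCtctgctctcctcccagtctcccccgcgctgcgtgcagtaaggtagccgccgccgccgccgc
SLC22A15: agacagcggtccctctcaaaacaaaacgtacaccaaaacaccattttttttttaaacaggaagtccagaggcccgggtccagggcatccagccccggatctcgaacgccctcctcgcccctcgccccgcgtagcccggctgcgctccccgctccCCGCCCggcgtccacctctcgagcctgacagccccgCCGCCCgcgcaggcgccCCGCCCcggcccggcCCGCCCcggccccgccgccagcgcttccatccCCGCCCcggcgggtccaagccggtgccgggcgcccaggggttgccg
Both were rich in G and C, at 75.0% and 73.0%, with 42 and 37 CpG dinucleotides, and both held GC boxes. A GC box occurred in 18 of the 29 tested transporter genes with a promoter in the table (62.1%) and in 44.6% of all 27305 promoters. The median G and C share was 65.7% for those 29 and 58.3% for all. The 29 had passed the filter on level, while the 27305 promoters were not limited to tested genes. Here and for the motifs below, the shares are thus not of like sets, and the part of the filter was not tested. Neither promoter held the TEAD motif GGAATG, which occurred in 3 of the 29 (10.3%: ABCC5, ABCF1 and SLC22A23) and in 14.0% of all. For SLC22A23 the window was chr6:3324101-3324400, inside the gene and not at its start as annotated in GENCODE 29. The AP-1 motif TGANTCA occurred in 1 of 29, ABCA5, and in 7.76% of all. The E-box CACGTG occurred in ABCA1 and ABCF1 (6.9%) and in 7.43% of all. TGATGNAA, the ATF4 element, occurred in ABCG2 only and in 3.67% of all. Motifs were searched on both strands, and a match is a description of letters only.

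Among the ABCA and ABCG genes of sterol and phospholipid transport, 2 of 4 tested were higher at any fold. That set is too small to set against the 36.1% of all genes tested that were higher. ABCA1, which loads cholesterol and phospholipid onto apolipoprotein A-I, had 9.03, 9.80 and 9.36 FPKM in Hep3B-Con and 15.8, 15.5 and 15.3 in Hep3B-KD. No library of either group came near the other group, and the log2 fold change was 0.72 ± 0.039 (adjusted p = 1.12e-05, limma). ABCA7 (ENSG00000064687, chr19:1040101-1065572, plus strand), its close relative with a role in phospholipid handling, had 2.80, 2.36 and 2.44 FPKM in Hep3B-Con and 5.49, 5.28 and 5.09 in Hep3B-KD. The log2 fold change of 1.04 ± 0.0763 (adjusted p = 4.13e-05, limma) lay just past a fold of 2, and was 0.93 with centring, 0.85 with quantile normalisation, 0.83 with a pseudocount of 1 and 0.99 without Hep3B-Con library 2. ABCA2 and ABCA3 did not pass, at −0.092 and −0.50, although ABCA2 passed at −0.20 with centring and −0.24 with quantile normalisation, and ABCA3 passed at −0.84 with quantile normalisation and at −0.59 with voom on whole reads. ABCG1 and ABCG4, sterol exporters of macrophages and brain, had at most 6 and 1 reads in a library.

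Of 15 further genes of sterol uptake and efflux, 13 were tested; 8 passed as higher and 2 as lower, none past a fold of 2, and the median was 0.24. Over all genes, 36.1% were higher, 23.8% lower and the median was 0.11. APOA1, the acceptor of ABCA1, went from 73.8 ± 2.73 to 126.6 ± 4.22 FPKM. SCARB1, the receptor for high density lipoprotein, went from 33.0 ± 1.29 to 20.8 ± 1.05.

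The ABCA5-like genes ABCA8, ABCA9, ABCA6, ABCA10 and ABCA5 lie side by side on chromosome 17 with gaps of at most 19.1 kb. Only ABCA5 reached the filter. It had 2.07, 1.85 and 2.25 FPKM in Hep3B-Con and 2.85, 3.0 and 3.03 in Hep3B-KD, without overlap, and rose by 0.51 (adjusted p = 2.28e-03, limma). Its neighbours were counted in reads. ABCA10 had 27, 23 and 15 reads in Hep3B-Con and 54, 66 and 41 in Hep3B-KD. ABCA9 had 3, 4 and 1 reads and then 23, 26 and 19. ABCA6 had 2, 0 and 3 reads and then 7, 16 and 9. In all 3 every Hep3B-KD library was above every Hep3B-Con library. ABCA8 had 1 read in each Hep3B-Con library and 2, 0 and 5 in the Hep3B-KD libraries, which is too few to compare. ABCA10 and ABCA5 overlap at their ends on the same strand, over 3.8% and 2.4% of their exon bases.

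Among the 7 canalicular exporters 4 were tested. ABCB1, the P-glycoprotein drug pump, had 17.6, 18.0 and 17.5 FPKM in Hep3B-Con and 22.2, 20.7 and 20.8 in Hep3B-KD, without overlap. It rose by 0.26 (adjusted p = 6.44e-04, limma), or 0.16 with centring. ABCC2, the exporter of bilirubin and drug conjugates into bile, rose by 0.36 from 10.5 ± 0.342 to 13.5 ± 0.091 FPKM (adjusted p = 1.34e-04, limma). ABCG2, a pump of sulphates and urate, went the other way, from 1.06 ± 0.124 to 0.63 ± 0.0825 FPKM (log2 fold change −0.66, adjusted p = 0.0143, limma), with 0.0529 without Hep3B-Con library 2. ABCB4, the phosphatidylcholine floppase and a neighbour of ABCB1 on chromosome 7, did not pass at 0.18 (adjusted p = 0.168), and its sign turned to −0.074 with quantile normalisation. ABCB11, the bile salt export pump, had at most 2 reads in a library, and the sterol exporters ABCG5 and ABCG8 at most 4 and 7, so a difference was not detectable at this depth.

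The ABCC exporters that mostly face the blood fell into both directions, none past a fold of 2. ABCC1, an exporter of glutathione conjugates, had 15.3, 15.4 and 16.4 FPKM in Hep3B-Con and 12.8, 13.03 and 13.7 in Hep3B-KD. The groups did not overlap, and the log2 fold change was −0.25 (adjusted p = 1.98e-03, limma). ABCC3, which returns bile acid and drug conjugates to blood, decreased by 0.70, from 8.29 ± 0.15 to 5.09 ± 0.261 FPKM (adjusted p = 3.47e-05, limma), and ABCC4, an exporter of cyclic nucleotides and bile acids, by 0.26 (adjusted p = 8.34e-03, limma). ABCC6, which is needed for ATP release from hepatocytes, was higher by 0.20 (adjusted p = 1.81e-03, limma), or 0.10 with centring. It shares sequence with the pseudogenes ABCC6P1, at 12.6 ± 1.32 and 15.3 ± 0.582 FPKM, and ABCC6P2, at 6.17 ± 0.519 and 5.68 ± 0.783, so its value is uncertain. ABCC10 and ABCC5, at 0.14 and 0.11, had adjusted p-values of 0.0406 and 0.0466 in limma and stood at 0.037 and 0.0076 with centring, where neither passed. ABCC10 passed after leaving out 1 library only when that was Hep3B-KD library 2, and otherwise had 0.067 to 0.115. ABCC5 passed only when it was Hep3B-Con library 2, and otherwise had 0.0609 to 0.128. ABCC9, a subunit of potassium channels in muscle, had 22, 19 and 13 reads in Hep3B-Con and 4, 6 and 8 in Hep3B-KD.

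Among the organellar ABCB genes, ABCB8, of the mitochondrial inner membrane, decreased by 0.35 (4.08 ± 0.12 and 3.17 ± 0.102 FPKM; adjusted p = 1.28e-03, limma). ABCB10, a mitochondrial exporter linked to haem synthesis, had 13.7, 13.5 and 11.97 FPKM in Hep3B-Con and 12.8, 14.6 and 13.6 in Hep3B-KD. The groups overlapped, the log2 fold change was 0.064 (adjusted p = 0.457), and its sign turned with centring. Counts of ABCB9 and ABCB6 are uncertain, since 45.1% and 54.7% of their exon bases overlap other genes.

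ABCE1 and the ABCF genes work on ribosomes and carry nothing across membranes, and 3 of the 4 genes were lower at any fold, a set too small to set against the 23.8% of all genes that were lower. ABCF1 had 112, 111 and 113 FPKM in Hep3B-Con and 93.0, 92.4 and 92.6 in Hep3B-KD (log2 fold change −0.27, adjusted p = 1.38e-05, limma). The 2 groups were well apart and the libraries within each were close. ABCE1, the ribosome recycling factor, decreased by 0.29 (adjusted p = 8.02e-04, limma), with 15.8% of its exon bases shared with genes on the opposite strand, and ABCF2 by 0.33 (adjusted p = 3.94e-03, limma), with 45.8% shared with a gene on the same strand. ABCF3 was higher by 0.16 (adjusted p = 0.0191, limma), or 0.053 with centring, where it did not pass (0.335). Leaving out Hep3B-Con library 2 or 3, or Hep3B-KD library 1 or 3, gave 0.0525 to 0.0628.

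Of the 36 transporter genes under the filter, 10 had at most 3 reads in every library (SLC22A16, SLC22A13, SLC22A2, SLC22A17, ABCB11, SLCO1B3, SLCO1C1, SLCO4A1, ABCA13 and ABCG4), which is taken here as the floor. For the low genes, limma with voom was run on whole reads for genes with at least 10 reads over the 6 libraries, a choice made after the values were seen. It covered 26 of the 36. These were not quite the 26 genes above the floor, since SLCO1B3 was covered and a gene above the floor had too few reads. Of those covered, 8 passed an adjusted p of 0.05, against 49.0% of all 20230 genes in that fit. The 20230 include well-expressed genes, so the shares are not of like sets, and the part of read depth was not tested. ABCA9 (log2 fold change 3.08), ABCA6 (2.79), SLC22A4 (2.63), ABCA10 (1.38), SLC22A7 (1.26) and ABCC11 (0.92) were higher. SLC22A4, a carrier of ergothioneine, had 1, 0 and 3 reads in Hep3B-Con and 10, 4 and 10 in Hep3B-KD. SLC22A7, a liver organic anion carrier, had 8, 8 and 7 reads and then 17, 21 and 16. ABCC9 (−1.44) and SLCO5A1 (−1.86), an orphan carrier, were lower. Read sums were under 10 in Hep3B-Con for ABCA9 (8), ABCA6 (5) and SLC22A4 (4), and in Hep3B-KD for SLCO5A1 (7). These genes reached the minimum of 10 reads through the other group. SLCO5A1 had 15, 9 and 8 reads and then 2, 2 and 3. The main limma test with no filter on low values also covered these 8 genes. ABCA9 (adjusted p = 8.58e-03) and SLC22A7 (0.047) passed it. ABCA10 (0.0514), SLC22A4 (0.0536), SLCO5A1 (0.0903), ABCC9 (0.114), ABCA6 (0.115) and ABCC11 (0.163) did not.

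**Figure D1:**
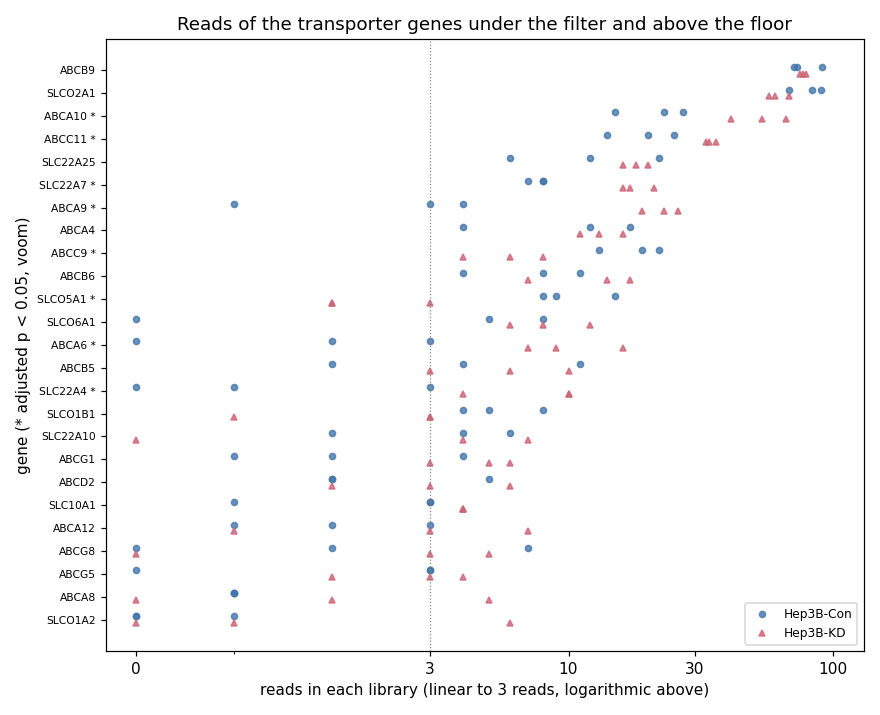
Reads in each library of 25 of the 26 transporter genes that are under the filter and above the floor of 3 reads (dotted line), with circles for Hep3B-Con and triangles for Hep3B-KD; the axis is linear up to 3 reads and logarithmic above. Asterisks mark the 8 genes that passed the voom test, which did not cover every gene above the floor. ABCA10, ABCA9 and SLC22A7 lie higher in all 3 Hep3B-KD libraries, ABCC9 and SLCO5A1 lower.

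The genes around bile acids and transporter control were counted from lists, at any fold, for which 36.1% of all genes tested were higher and 23.8% lower and the median log2 fold change was 0.11. Of 15 genes of bile acid synthesis and conjugation, 10 were tested; 7 passed as higher and 1 as lower, and the median was 0.34. CYP39A1, an oxysterol hydroxylase, went from 0.579 ± 0.0637 to 1.48 ± 0.233 FPKM, and AKR1D1, the steroid reductase that shapes the bile acid ring, from 0.434 ± 0.0785 to 1.24 ± 0.0723. CYP7A1, the rate-limiting enzyme, and CYP8B1 had means of at most 0.028 FPKM in both groups. Of 18 regulators 16 were tested; 3 passed as higher and 8 as lower, and the median was −0.13. NR1H4, the bile acid receptor FXR, went from 3.40 ± 0.17 to 8.20 ± 0.375 FPKM (log2 fold change 1.24, adjusted p = 6.09e-06, limma), and FGF19, which signals bile acid load, from 7.79 ± 1.3 to 3.48 ± 0.957 (log2 fold change −1.16, adjusted p = 2.34e-03, limma). A further list of 15 held partners of transport, other transporters, and ABC proteins under other symbols (TAP1, TAP2 and CFTR). Of these 15, 11 were tested, 7 passed as higher and 2 as lower, and the median was 0.19. SLC51B, a subunit of the bile acid exporter on the blood side, went from 2.35 ± 0.145 to 0.484 ± 0.329 FPKM (log2 fold change −2.21, adjusted p = 1.85e-03, limma), and was the only one of these past a fold of 2. AKR1D1 in Hep3B-Con and SLC51B in Hep3B-KD had means under 0.5 FPKM, and each passed the filter through the other group. SLC22A18, which the rule left out, was higher by 0.81, from 1.501 ± 0.0639 to 2.74 ± 0.535 FPKM (adjusted p = 2.59e-03, limma).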

How the data were processed

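RNA sequencing was carried out on 3 Hep3B-Con and 3 Hep3B-KD libraries. The deposited table holds FPKM for 29908 genes by Ensembl identifier, computed by the authors. The submitters' processing notes name Bowtie2 2.0.6, TopHat2 2.0.12 and the build GRCh37; the tool that counted genes, its annotation and its use of strand are not given in the sources used here. All identifiers were found in GENCODE 29 (GRCh38), and FPKM times the exon length of that release gave whole reads in 100% of values above 0 (tolerance 0.01). Coordinates here are those of GENCODE 29. The 14221 genes averaging 0.5 FPKM or more were tested on log2(FPKM + 0.1) with limma 3.58.1 (eBayes with trend, R 4.3.3) and Benjamini-Hochberg adjustment; voom on whole reads was an alternative. The test was checked on simulated data, at 2 settings of the extra spread between libraries (dispersion). At 0.01, 75% of 2-fold and 91% of 4-fold changes had an adjusted p under 0.05, with 13 false calls. At 0.1, 3% and 63% did, with 5 false calls, so at that spread most 2-fold changes were missed. Only 100 genes were changed at each fold, while 59.9% of all genes passed at any fold in these data. Detection here may therefore differ, and which setting is nearer to these libraries was not tested. Alternatives changed the filter, pseudocount, scaling, moderation, block or library set. Transporter genes, roles and lists were chosen with earlier results of these data known. Per-library values were given for genes past a fold of 2 and for the most abundant gene of each role. Outside that rule, reads per library were also given for SLCO1B1, ABCA10, ABCA9, ABCA6, ABCA8, SLC22A4, SLC22A7 and SLCO5A1. List genes past a fold of 2 were named, at most 4 a list. APOA1, SCARB1, CYP7A1 and CYP8B1 were chosen after their values were seen. Some members are not reported here one by one but are included in the counts. Promoters were matched by symbol for 54 of the 73 genes.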

Additional observations from a re-analysis of the deposited data

How the results depend on the processing

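The count of transporter genes past a fold of 2 stayed at 6 to 9 and that at any fold at 24 to 30 under all alternatives run. With a pseudocount of 1, the 6 lacked ABCA7 and SLC22A3 (log2 fold change 0.9975), and with no filter on low values ABCA9 was added; all genes past a fold of 2 numbered 503 with a pseudocount of 1 against 1256. The median log2 fold change of the tested transporter genes was 0.0076 with median centring and −0.066 with quantile normalisation, against 0.11. Signs turned for SLC10A7 (−0.066) and ABCB4 (−0.074) with quantile normalisation and for ABCB10 (−0.039) with median centring; none of the 3 had been called, and the cause was not tested. Leaving out 1 library each in turn gave 7 to 8 genes past a fold of 2, 24 to 26 at any fold, medians of 0.086 to 0.14, and −1.02 to −0.97 for DAGLA.

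Same-numbered libraries did not deviate together (correlations of −0.0134, −0.0656 and −0.0011), and no Hep3B-KD library correlated best with its own number, so the numbers were not taken as pairs. With the replicate block, 8 transporter genes passed a fold of 2 and 25 passed at any fold; SLC10A4 (0.0956), SLC22A31 (0.0599), ABCC10 (0.0643) and ABCC5 (0.097) had adjusted p-values above 0.05. Depth limits the 36 genes under the filter, 10 of which had at most 3 reads in any library. An exact permutation test of 3 against 3 libraries cannot go below 0.1, which is what DAGLA gave.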
